A study of Gallus gallus with 12 samples.

Results

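ALDH1A1, ALDH1A2 and ALDH1A3 are the retinaldehyde dehydrogenases, the enzymes that make retinoic acid. They were taken by symbol from a deposited table of counts per gene, in which 3 of 17138 rows carried these names. The study profiled intestinal mesoderm of the chick (Gallus gallus) on day 14 of embryonic development. It used Light-seq, in which regions drawn by hand on a tissue section receive light-crosslinked DNA barcodes before the cDNA is sequenced. Each of 12 samples gave counts for 3 layers of the gut wall: the subepithelial mesenchyme, the longitudinal muscle on the inner side and the surface of the circumferential muscle that faces it. Per the labels, all embryos were incubated at 38 °C and received an RCAS retrovirus by electroporation at Hamburger-Hamilton stage 17, into splanchnic lateral plate mesoderm at midgut level. The samples formed 3 groups of 4, called here midgut (midgut tissue, RCAS-mGFP, a fluorescent protein used as the control), Hoxd13 midgut (midgut tissue, RCAS-Hoxd13) and hindgut (hindgut tissue, RCAS-mGFP). The labels give the midgut-level electroporation for the hindgut samples as well, and do not state whether replicates were separate embryos, so p-values measure only the spread between these samples, which may be technical.

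Retinoic acid is a lipid signal made from vitamin A. Retinol is first oxidised to retinaldehyde by retinol dehydrogenases, the ALDH1A enzymes oxidise retinaldehyde irreversibly to retinoic acid, and CYP26 enzymes degrade the product. Retinoic acid binds the nuclear receptors RARA, RARB and RARG, which pair with RXR receptors on DNA, and in vertebrate embryos it helps to pattern the body axis and organs such as the gut.

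Total counts per sample were 210803 to 903222 (median 356599) for mesenchyme, 11233 to 49535 for longitudinal muscle and 19920 to 112252 for circumferential muscle. HOXD13, the misexpressed gene, had 0 counts in each midgut mesenchyme, 155 to 238 in the Hoxd13 midgut and 1 to 8 in hindgut. Hindgut replicate 1 stood apart from the other hindgut samples in the mesenchyme. It had the most counts (903222, against 210803 to 454072), a mitochondrial share of counts of 27.5% (33.0% to 35.5% in the others) and a sum of 15 epithelial markers of 3362 CPM (counts scaled to a common total), against 860 to 1081 CPM in hindgut replicates 2 to 4 and 2320 to 3407 CPM in midgut. Of the hindgut genes HOXA13 and HOXB13, which had 0 counts in every control midgut sample, it had 14.4 and 11.1 CPM. Those were far lower levels than the 57.4 to 104 and 53.5 to 99.6 CPM of hindgut replicates 2 to 4. Results on hindgut are therefore given with and without it. The mitochondrial share also separated the midgut groups, at 35.9% to 39.0% in midgut and 40.7% to 42.7% in the Hoxd13 midgut.

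In the mesenchyme, the members differed in which comparisons passed the threshold, and differences between their responses were not tested. ALDH1A3 was lower in the Hoxd13 midgut than in midgut, ALDH1A1 was lower in hindgut than in the Hoxd13 midgut, and no comparison of ALDH1A2 passed the threshold. Levels below are CPM on library sizes scaled by TMM factors, which correct for differences in composition between samples, and are compared between samples of one gene, not between genes, because no transcript lengths of the build were at hand. In such regions fewer cells of a type and less RNA per cell cannot be told apart.

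ALDH1A3 is a retinaldehyde dehydrogenase known in vertebrates from the developing eye and nose. In midgut replicates 1 to 4 it had 82, 52, 44 and 56 counts, which made 197, 178, 153 and 153 CPM. In Hoxd13 midgut replicates 1 to 4 it had 18, 21, 22 and 33 counts, or 57.4, 68.2, 79.8 and 89.6 CPM. The groups did not overlap: the highest Hoxd13 midgut sample lay well under the lowest midgut sample. The means were 170 ± 21.6 CPM in midgut and 73.7 ± 14.0 CPM in the Hoxd13 midgut (SD, n = 4), and ALDH1A3 fell by 1.20 ± 0.33 on the log2 scale (SE, adjusted p = 0.049, quasi-likelihood test of edgeR, Benjamini-Hochberg adjusted over 4176 genes). Of the genes tested, 2.66% passed in this comparison, 1.34% as lower, and 6.9% lay below midgut in all 4 samples, so the separation alone was shared with many genes.

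The call lay close to the threshold of 0.05. Leaving out any midgut or Hoxd13 midgut replicate gave log2 changes of -1.32 to -1.10 with adjusted p from 0.096 to 0.15, past the threshold in 0 of these 8 fits. All 8 kept the hindgut samples in the estimate of the spread. By edgeR on only the 2 groups compared, the change was -1.23 ± 0.19 (adjusted p = 1.2e-06). With no low-count filter it was -1.23 ± 0.22 (adjusted p = 7.4e-06). Both settings also called more genes over the whole table. Without hindgut replicate 1, which is in neither group but enters the shared estimate of the spread, the change was -1.22 ± 0.19 (adjusted p = 6.3e-06), in a fit where 7.52% of genes passed. The direction was lower in 4 of 4 samples.

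In hindgut the 4 samples disagreed on ALDH1A3. Hindgut replicates 1 to 4 had 156, 3, 7 and 23 counts, or 143, 16.6, 34.4 and 50.9 CPM. Replicate 1 was close to the midgut samples, and the other 3 lay below every Hoxd13 midgut sample. All 4 were below midgut on this scale, as were 1.05% of genes, but in CPM of the plain totals replicate 1 (173) lay within the midgut range (145 to 192). The hindgut mean was 61.2 ± 56.2 CPM, and 34.0 ± 17.2 CPM over replicates 2 to 4. Against midgut the log2 change was -1.10 ± 0.31 (adjusted p = 0.075), not past the threshold, in a comparison where 1.48% of genes passed, 0.168% as lower. Without replicate 1 it was -2.14 ± 0.25 (adjusted p = 1.6e-09), where 19.6% of genes passed and 9.52% passed as lower.

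Against the Hoxd13 midgut, the ALDH1A3 difference in hindgut had no stable sign. With all samples it was 0.10 ± 0.34 (adjusted p = 0.92, 95% interval -0.57 to 0.77). Without hindgut replicate 1, hindgut was lower by -0.92 ± 0.28 (adjusted p = 0.020), and 14.9% of genes passed in that fit. Both comparisons with midgut share the midgut samples.

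ALDH1A1 is a retinaldehyde dehydrogenase known from the eye and the liver. Midgut replicates 1 to 4 had 40, 24, 22 and 31 counts, or 96.2, 82.0, 76.3 and 84.5 CPM. Hoxd13 midgut replicates 1 to 4 had 28, 27, 32 and 33 counts, or 89.3, 87.6, 116 and 89.6 CPM. These 2 groups overlapped, with means of 84.8 ± 8.35 and 95.7 ± 13.7 CPM, and the log2 difference was 0.16 ± 0.25 (adjusted p = 0.80, 95% interval -0.33 to 0.64). ALDH1A1 thus gave no call in the comparison in which ALDH1A3 was called; the difference between both genes' responses was not tested.

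In hindgut, ALDH1A1 had 80, 4, 5 and 16 counts in replicates 1 to 4, or 73.2, 22.2, 24.6 and 35.4 CPM. All 4 hindgut samples lay below all samples of both midgut groups, with replicate 1 nearest to them; in CPM of the plain totals replicate 1 (88.6) lay within both. The mean was 38.9 ± 23.6 CPM, and 27.4 ± 7.06 CPM over replicates 2 to 4. Against the Hoxd13 midgut, ALDH1A1 was lower in hindgut by -0.96 ± 0.26 (adjusted p = 0.040). There 3.78% of genes passed, 1.53% as lower, and 5.44% lay below the Hoxd13 midgut in all 4 samples. Against midgut the change of -0.80 ± 0.26 did not pass (adjusted p = 0.12).

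Without hindgut replicate 1 both differences of ALDH1A1 were larger. Against midgut it was -1.52 ± 0.28 (adjusted p = 3.3e-05), where 19.6% of all genes passed. Against the Hoxd13 midgut it was -1.66 ± 0.28 (adjusted p = 1.0e-05), where 14.9% of all genes passed. The call against the Hoxd13 midgut was lost without any one Hoxd13 midgut replicate, without hindgut replicate 2, 3 or 4, and without midgut replicate 2, 3 or 4 (10 fits, adjusted p from 0.0503 to 0.126), and passed in 2 of 12. The direction was the same in each of these fits.

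ALDH1A2 is the main enzyme of retinoic acid synthesis in the mesoderm of early vertebrate embryos. Midgut replicates 1 to 4 had 22, 13, 12 and 14 counts, or 52.9, 44.4, 41.6 and 38.2 CPM. Hoxd13 midgut replicates had 8, 8, 9 and 14 counts, or 25.5, 26.0, 32.7 and 38.0 CPM. The highest Hoxd13 midgut sample lay just under the lowest midgut sample, and also in CPM of the plain totals (34.3 against 39.5). Of all genes tested, 6.9% lay below midgut in all 4 samples. The means were 44.3 ± 6.29 and 30.5 ± 5.96 CPM, and the log2 difference of -0.53 ± 0.28 did not pass (adjusted p = 0.34, 95% interval -1.08 to 0.02).

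Hindgut replicates 1 to 4 had 41, 4, 10 and 18 counts of ALDH1A2, or 37.5, 22.2, 49.2 and 39.9 CPM. They overlapped both midgut groups, and replicate 1 did not stand apart from the others. The mean of 37.2 ± 11.2 CPM differed from midgut by -0.24 ± 0.26 on the log2 scale (adjusted p = 0.80, 95% interval -0.74 to 0.27) and from the Hoxd13 midgut by 0.30 ± 0.28 (adjusted p = 0.63). Without replicate 1 these differences were -0.23 and 0.31, neither past the threshold. With 4 to 41 counts per sample, ALDH1A2 was the least counted member, and the intervals give the differences that remain possible.

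**Figure D1:**
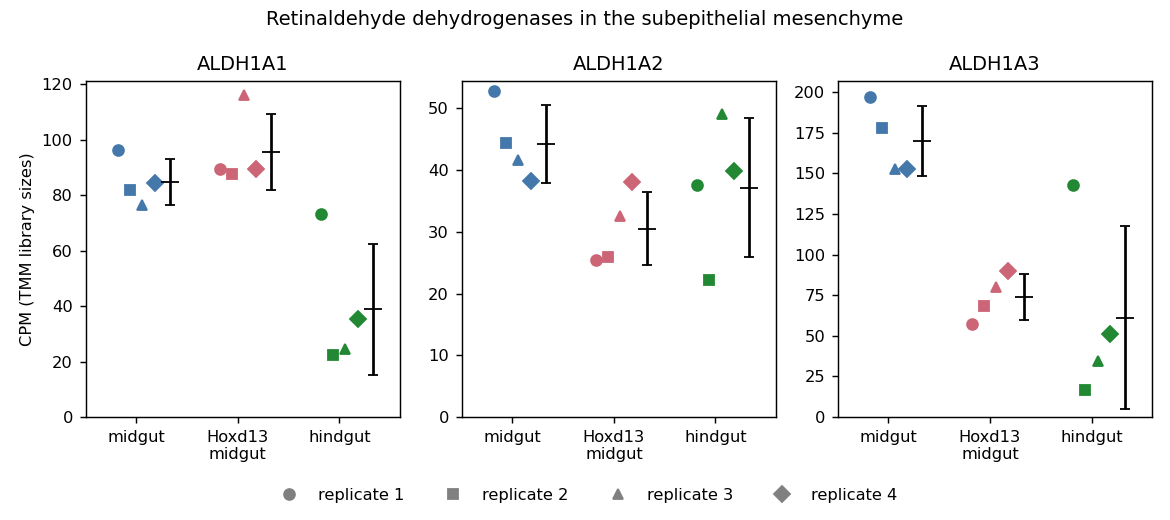
Level of each gene in the mesenchyme, in CPM on TMM library sizes, for the 12 samples in 3 groups; symbols mark the replicate number, and black bars the mean ± SD of 4 samples. For ALDH1A3 the Hoxd13 midgut samples (57.4 to 89.6) lie below the midgut samples (153 to 197), and hindgut replicate 1 (143) lies apart from the other hindgut samples (16.6 to 50.9).

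Across the groups the order of mean levels was midgut, Hoxd13 midgut, hindgut for ALDH1A3; Hoxd13 midgut, midgut, hindgut for ALDH1A1; and midgut, hindgut, Hoxd13 midgut for ALDH1A2. Neighbours in these orders overlapped in their samples for Hoxd13 midgut and hindgut in ALDH1A3 and for both midgut groups in ALDH1A1. So did hindgut with each midgut group in ALDH1A2. The orders hold for mean CPM on TMM library sizes. In counts summed per total, hindgut (103 CPM) was above the Hoxd13 midgut (63.9 CPM) for ALDH1A3, as in the fit (log2 difference 0.10). For ALDH1A1, midgut (84.6 CPM) was then above the Hoxd13 midgut (81.5 CPM).

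The share of each gene in the summed counts of the 3 genes does not depend on library size. It is a share of counts, not of transcripts, since the genes differ in length. ALDH1A3 held 56.9%, 58.4%, 56.4% and 55.4% in midgut replicates 1 to 4 and 33.3%, 37.5%, 34.9% and 41.3% in Hoxd13 midgut replicates 1 to 4. The ranges were far apart. Summed over samples, ALDH1A3 took 234 of 412 counts in midgut (56.8%, Wilson 95% interval 52.0 to 61.5) and 94 of 253 in the Hoxd13 midgut (37.2%, 31.4 to 43.3), intervals that cover counting error only. ALDH1A1 held 27.0% to 30.7% in midgut and 41.3% to 51.9% in the Hoxd13 midgut, while ALDH1A2 held 13.9% to 15.4% and 14.3% to 17.5%. The 3 shares of a sample make up a whole, so a fall in 1 raises the others. In counts summed per total, ALDH1A1 itself was at 0.96 of the midgut level in the Hoxd13 midgut (exact 95% counting interval 0.74 to 1.25).

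In hindgut replicate 1 ALDH1A3 held 56.3%, within the midgut range. In hindgut replicates 2, 3 and 4 it held 27.3%, 31.8% and 40.4%, and ALDH1A2 held 36.4%, 45.5% and 31.6%, above every other sample. These shares rested on few counts: for ALDH1A2 in hindgut replicate 2 (4 of 11 counts), the Wilson 95% interval ran from 15.2% to 64.6%.

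**Figure D2:**
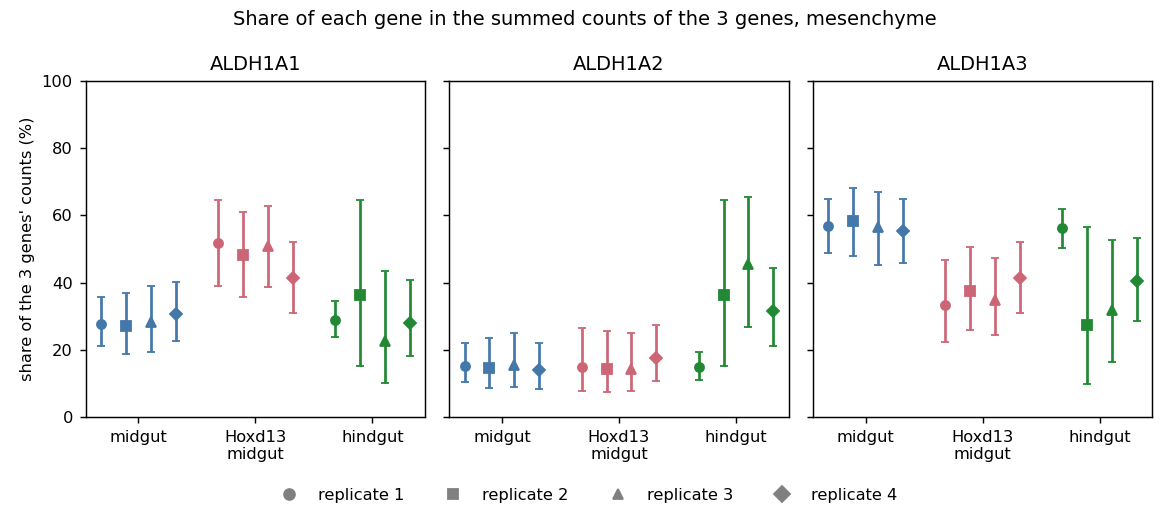
Share of each gene in the summed counts of the 3 genes in each mesenchyme sample, in percent, with Wilson 95% intervals as bars and symbols marking the replicate number. ALDH1A3 holds 55.4% to 58.4% in midgut and 33.3% to 41.3% in the Hoxd13 midgut, and hindgut replicate 1 (56.3%) lies with the midgut samples.

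Markers of other cell types moved with part of these differences. Of 23 epithelial markers listed, 15 were in the table. Midgut samples had epithelial sums of 2320 to 3407 CPM and Hoxd13 midgut samples of 2193 to 2543 CPM. The sum was 3362 CPM in hindgut replicate 1 against 860 to 1081 CPM in the other hindgut samples. The hindgut samples with little ALDH1A1 and ALDH1A3 were thus those with a low epithelial sum. APOA1, a lipoprotein gene of the intestinal epithelium, reached 268 counts in hindgut replicate 1, whereas hindgut replicates 2 to 4 had 1, 1 and 3. CDX2, an intestinal epithelial transcription factor, had 90, 0, 1 and 7. Other markers differed less. On TMM library sizes EPCAM averaged 167 CPM in hindgut replicates 2 to 4 against 310 CPM in midgut, and CDH1 360 against 651 CPM. ELF3, also listed, had 12, 2, 0 and 8 counts in hindgut replicates 1 to 4. Of 9 epithelial markers tested in hindgut against midgut, 1 was called lower with all samples (median log2 change -0.71) and 8 without hindgut replicate 1 (median -1.55). Of all genes tested, 0.168% were called lower with all samples and 9.52% without that replicate. The part of epithelial RNA in the hindgut values of ALDH1A1 and ALDH1A3 was not tested.

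In the Hoxd13 midgut the epithelial markers went both ways. The mean sum was 2314 CPM, against 2853 CPM in midgut, and the ranges overlapped. On TMM library sizes EPCAM was at 348 CPM against 310 in midgut, CDH1 at 771 against 651 and APOA1 at 292 against 265. Their summed counts were 440 against 418, 979 against 879 and 370 against 358, from totals of 1471992 and 1383646 counts. Per total count, EPCAM and APOA1 were thus not higher with Hoxd13, and CDH1 was. KRT18 had 199 counts against 259, FABP2 2 against 11 and FABP1 0 against 7. With all samples 0 of 9 epithelial markers were called (median log2 change 0.06, 6 above 0), against 2.66% of all genes tested. An unadjusted p under 0.05 by edgeR was found for 3, and for 702 of all 4176 genes. Without hindgut replicate 1, 2 were called lower, as were 182 of all 4214 genes. ANPEP, which cleaves peptides at the brush border, was lower by -0.64 but did not pass (adjusted p = 0.18), and CDX1, another epithelial transcription factor, is given with the pathway genes.

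Markers of the mesothelium, the outer lining of the gut, had sums of 1832 to 2416 CPM in the midgut samples and 1333 to 1612 CPM with Hoxd13. The sum was 2406 CPM in hindgut replicate 1 and 788 to 1077 CPM in the other hindgut samples. KRT7 and PODXL, which other epithelia also make, took most of that sum. PODXL was lower in the Hoxd13 midgut by -1.06 ± 0.22 (adjusted p = 0.0086), whereas KRT7 differed by 0.02 (adjusted p = 0.97). LRRN4 had 201 counts in midgut and 114 with Hoxd13. Of 3 mesothelial markers tested there, 1 was called lower with all samples (median log2 change -0.66) and 2 without hindgut replicate 1. Of all genes tested, 1.34% were called lower with all samples and 182 of 4214 without that replicate. The defining marker WT1 had 16 counts in midgut, 7 with Hoxd13 and 27 in hindgut, and MSLN 0, 0 and 2. The totals behind these sums were 1383646, 1471992 and 1829640 counts. Of the 27 hindgut counts of WT1, 18 came from replicate 1. For fibroblast markers the sums were 14205 to 16356 CPM (midgut), 10424 to 13387 CPM (Hoxd13 midgut) and 16224 to 19219 CPM (hindgut). Of 11 tested in the Hoxd13 midgut against midgut, 1 was called lower with all samples. Without hindgut replicate 1, 4 were called lower and 1 higher. Markers of enteric neurons and glia had sums of 359 to 482 CPM in midgut, 273 to 337 CPM with Hoxd13 and 304 to 494 CPM in hindgut. Of 5 tested, 1 was called lower in the Hoxd13 midgut than in midgut, and 2 without hindgut replicate 1. Of all genes tested in this comparison, 56 of 4176 were called lower with all samples. Without that replicate, 182 of 4214 were called lower and 135 higher. Erythroid markers had sums of 182 to 348 CPM in midgut, 113 to 159 CPM with Hoxd13 and 436 to 782 CPM in hindgut, and 2 of 2 tested were called higher in hindgut than in midgut. Of 10 smooth muscle markers, 4 were called higher in hindgut than in midgut (median log2 change 0.93; 9 without hindgut replicate 1) and 2 in the Hoxd13 midgut (median 0.23). Over all genes tested, 55 of 4176 were called higher in each of these comparisons, and 424 of 4214 in hindgut without replicate 1. The part of these markers, and of the mitochondrial share, in the differences of the members was not tested.

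**Figure D3:**
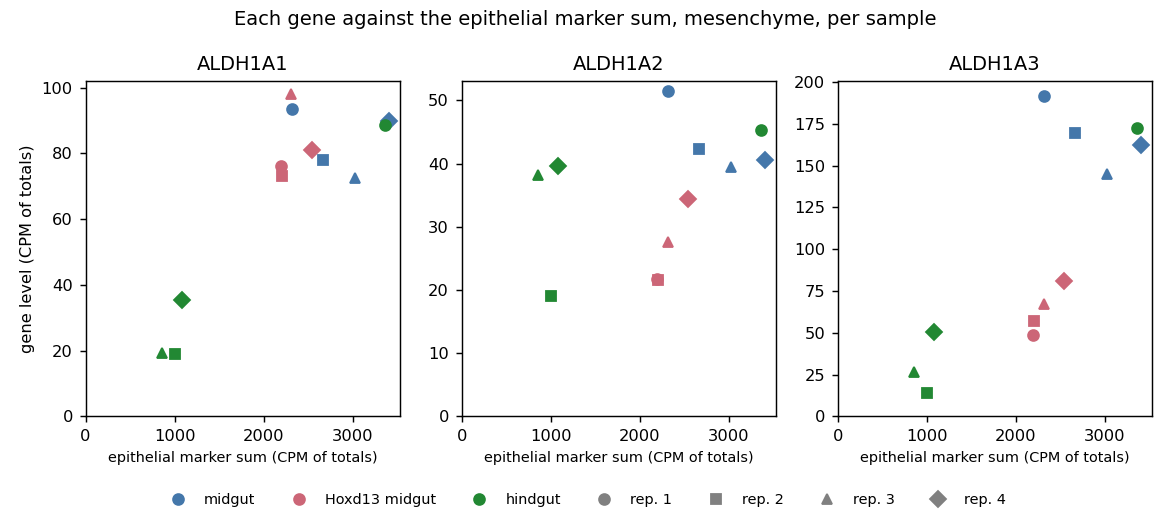
Level of each gene against the sum of 15 epithelial markers in the mesenchyme, both in CPM of the total counts, 1 point per sample, with colours for groups and symbols for replicate numbers. The Hoxd13 midgut samples (epithelial sums of 2193 to 2543) hold less ALDH1A3 than the midgut samples (sums of 2320 to 3407), and hindgut replicate 1 lies with the midgut samples for all 3 genes.

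The groups also differed in sex-linked RNA. By the GRCg7b assembly ALDH1A1 lies on chromosome Z and ALDH1A2 and ALDH1A3 on chromosome 10. In chickens, males carry 2 Z chromosomes and females a Z and a W. The 3 W-linked genes matched by symbol summed to 1, 1, 0 and 0 counts in midgut replicates 1 to 4, to 45 to 66 in the Hoxd13 midgut and to 22 to 71 in hindgut. In CPM of the totals these sums were 122 to 162 in the Hoxd13 midgut, 37.6 in hindgut replicate 1 and 104 to 156 in the other hindgut samples. The 520 Z-linked genes summed to 13701 to 15515 CPM of the totals in midgut, 9270 to 10252 in the Hoxd13 midgut, 17209 in hindgut replicate 1 and 9670 to 11859 in the other hindgut samples. Sex and group cannot be told apart in either comparison with midgut.

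The other genes of retinoic acid synthesis, reception and breakdown were taken from a list of 57, of which 44 were in the table and 19 had enough counts to be tested in the mesenchyme. In the Hoxd13 midgut, where ALDH1A3 was called lower, 0 of these 19 passed by edgeR, against 2.66% of all genes tested. An unadjusted p under 0.05 was found for 2 of them, and for 702 of all 4176 genes. Their median log2 change was -0.14, against 0.01 over all genes tested. The nearest was CDX1, a homeobox gene that responds to retinoic acid in mouse embryos and also marks the intestinal epithelium. CDX1 was at 93.8 to 120 CPM in midgut and 35.7 to 72.6 CPM in the Hoxd13 midgut, without overlap, as for 6.9% of genes tested. Its change was -1.12 ± 0.32 (adjusted p = 0.061), and -1.13 ± 0.22 (adjusted p = 0.00029) without hindgut replicate 1.

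Of the enzymes upstream, which interconvert retinol and retinaldehyde, DHRS3, which reduces retinaldehyde back to retinol, lay lower in all 4 Hoxd13 midgut samples (48.9 to 83.4 CPM) than in midgut (92.7 to 113 CPM). So did 6.9% of all genes tested. The DHRS3 change of -0.52 ± 0.20 did not pass (adjusted p = 0.18). RDH10, the retinol dehydrogenase that supplies the ALDH1A enzymes in embryos, was at 44.1 ± 7.36 and 41.1 ± 16.3 CPM (-0.10 ± 0.30, adjusted p = 0.91). The alcohol dehydrogenases ADH1C and ADH4 were at -0.21 and -0.20 (adjusted p = 0.78 and 0.65).

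The receptors gave no call in the Hoxd13 midgut either. RARA was at -0.40 (adjusted p = 0.44), RARB at 0.06 (0.96), RARG at 0.31 (0.59) and RXRA at 0.15 (0.68). RARB, a gene that retinoic acid induces in many tissues, had 7.26 to 47.8 CPM in the Hoxd13 midgut, a range that spanned the midgut values of 20.5 to 35.4 CPM. Of the other list genes tested, DHRS4, the co-regulators NRIP1, NCOA1 and NCOA2, and the readout genes TGM2, MEIS1, MEIS2, NR2F1 and NR2F2, lay between -0.24 (NCOA1) and 0.28 (NR2F2).

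In hindgut against midgut, 0 of 19 list genes passed by edgeR with all samples (median log2 change 0.10, and 0.00 over all genes tested). An unadjusted p under 0.05 was found for 7 of them, and for 582 of all 4176 genes. DESeq2 called 1. Without hindgut replicate 1, 7 of 20 passed, as did 19.6% of all genes tested. Among the 7, RARG (0.84), the transglutaminase TGM2 (0.73) and the homeobox gene MEIS1 (0.75) were higher. ADH1C (-2.36), ADH4 (-0.86) and CDX1 (-1.55) were lower, and, as with ALDH1A1 and ALDH1A3, hindgut replicate 1 lay at or near the midgut level for these 3: ADH1C was at 144 CPM there, 29.5 to 38.8 CPM in hindgut replicates 2 to 4 and 142 to 212 CPM in midgut.

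In hindgut against the Hoxd13 midgut, 2 of 19 list genes passed, both higher in hindgut, as did 2.25% of all genes tested. TGM2, of this pair, was at 0.71 (adjusted p = 0.028). TGM2 had 199 to 359 CPM in hindgut and 145 to 206 CPM in the Hoxd13 midgut, and it passed in 6 of the 12 fits that left out a sample. Without hindgut replicate 1, 6 of 20 passed, as did 14.9% of all genes tested. Among the 6, RARA, TGM2 and MEIS1 were higher and ADH1C and ADH4 lower.

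**Figure D4:**
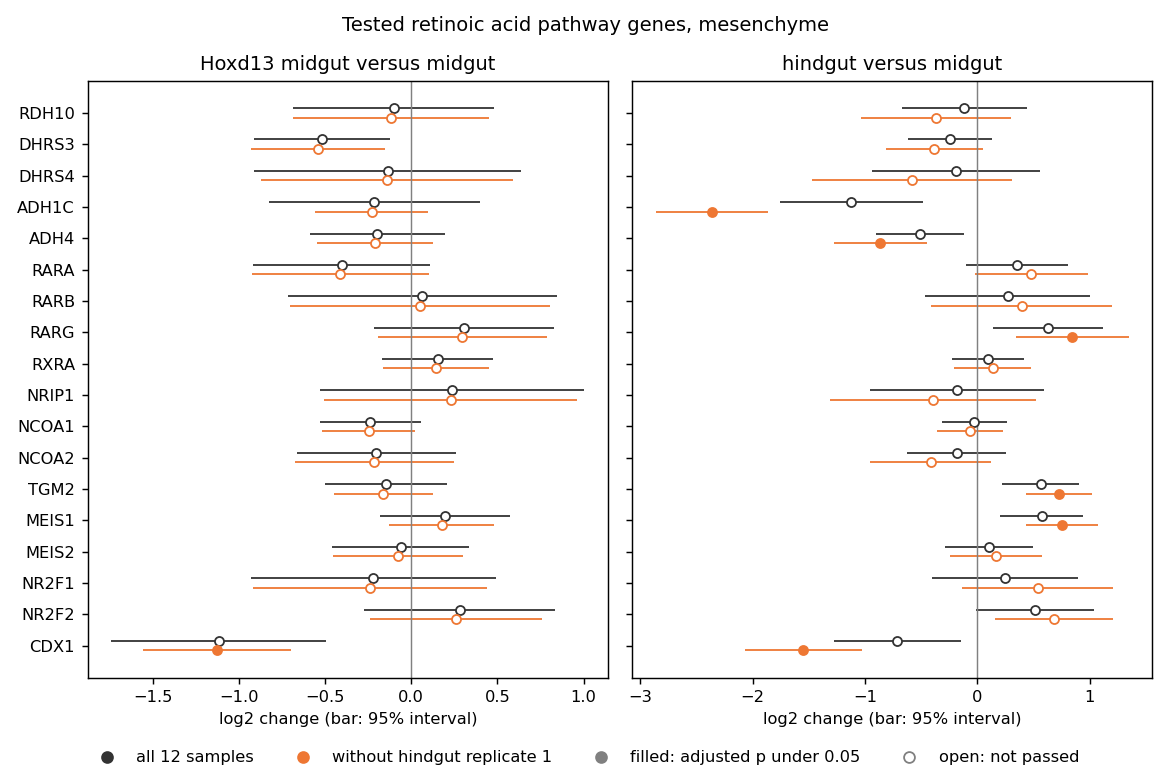
Log2 change of 18 of the tested genes of the retinoic acid list in the Hoxd13 midgut (left) and in hindgut (right) against midgut, with 95% intervals as bars; dark points use all 12 samples, orange points leave out hindgut replicate 1, and filled points have an adjusted p under 0.05. On the left 1 orange point is filled (CDX1, -1.13), and on the right 6 are, of which ADH1C (-2.36) lies lowest.

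The enzymes that degrade retinoic acid were too rare to test. CYP26B1 had 23, 19 and 36 counts summed over 4 samples in midgut, Hoxd13 midgut and hindgut, CYP26A1 had 4, 5 and 5, and CYP26C1 had 2 in each. All hindgut counts of CYP26A1 and CYP26C1 came from replicate 1. STRA6, the membrane receptor for retinol uptake, had 12, 26 and 33 counts, or 8.67 CPM (exact Poisson 95% interval 4.48 to 15.1), 17.7 CPM (11.5 to 25.9) and 18.0 CPM (12.4 to 25.3) of the summed totals. TTR, a carrier of the retinol-binding protein, had 14 counts in midgut, 1 in the Hoxd13 midgut and 10 in hindgut, all 10 in replicate 1. CRABP2, which carries retinoic acid in cells, had 3, 8 and 11. The 25 untested list genes had 1 to 111 counts over the 12 samples.

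Other aldehyde dehydrogenases, which act on other substrates, were compared to see whether the family as a whole moved. Of 9 listed with counts, 6 were tested, and 0 passed in either comparison with midgut by edgeR. An unadjusted p under 0.05 was found for 3 in the Hoxd13 midgut and 0 in hindgut. Of all 4176 genes tested, 702 and 582 had one. ALDH7A1 had a level of 49.1 to 83.3 CPM in midgut and 29.9 to 39.0 CPM in the Hoxd13 midgut, without overlap as for ALDH1A3 (-0.88 ± 0.31, adjusted p = 0.14). Of all genes tested, 6.9% lay below midgut in all 4 Hoxd13 midgut samples. ALDH6A1 was at -0.69 (adjusted p = 0.13). ALDH9A1 differed in the other direction, with means of 231 ± 15.2 CPM in the Hoxd13 midgut and 183 ± 19.0 CPM in midgut. It did not pass (0.33, adjusted p = 0.25). Without hindgut replicate 1, ALDH7A1 (adjusted p = 0.030) and ALDH6A1 (adjusted p = 0.040) were called lower in the Hoxd13 midgut, where 7.52% of all genes passed. In hindgut against midgut ALDH7A1 was then called lower (-1.13 ± 0.32, adjusted p = 0.0072), where 19.6% of all genes passed. ALDH9A1 was lower in hindgut than in the Hoxd13 midgut by -0.61 ± 0.15 (adjusted p = 0.026). There 3.78% of all genes passed, 1.53% as lower. That call passed in 6 of the 12 fits that left out a sample (adjusted p up to 0.0975). Without hindgut replicate 1 the change was -0.71 ± 0.16 (adjusted p = 0.0015), where 14.9% of all genes passed.

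By Pearson's r of log2 CPM over the 12 mesenchyme samples, among 4175 genes, the named genes with patterns most like ALDH1A3 were UPF1 (0.97), SPON2 (0.94), TBL1XR1 (0.94) and ACE (0.93). ACE, a peptidase of vessels and brush borders, had 258 ± 48.8 CPM in midgut, 76.2 ± 16.5 CPM in the Hoxd13 midgut and 71.6 ± 112 CPM in hindgut (11.1 to 240). For ALDH1A1 APOA1 (0.96) was among the most alike. APOA1 had 265 ± 38.7, 292 ± 21.7 and 65.6 ± 120 CPM in midgut, Hoxd13 midgut and hindgut. For ALDH1A2 they were AIMP2 (0.89), HGS (0.86), LDHB, DOT1L and ADAR (0.85 each). The members themselves were alike at r = 0.76 for ALDH1A1 and ALDH1A3, 0.58 for ALDH1A2 and ALDH1A3, and 0.08 for ALDH1A1 and ALDH1A2. These samples share a library type and differ in depth, and the values describe likeness over 12 points only.

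In the muscle layers the members had few counts and none passed the low-count filter, so values there are sums. In the longitudinal muscle ALDH1A3 had 6, 4, 3 and 1 counts in midgut replicates 1 to 4, 0, 0, 1 and 0 in the Hoxd13 midgut, and 9, 1, 0 and 1 in hindgut. Every midgut sample had at least 1 count, and 3 of 4 Hoxd13 midgut samples had 0. The Hoxd13 midgut sum of 1 count was 0.048 of the midgut level (14 counts, exact 95% counting interval of the ratio 0.0011 to 0.31).

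In the circumferential muscle ALDH1A3 had 6, 8, 5 and 1 counts in midgut, 1, 2, 4 and 3 in the Hoxd13 midgut, and 14, 2, 2 and 1 in hindgut. The midgut and Hoxd13 midgut samples overlapped there. The Hoxd13 midgut level was 0.32 of the midgut level (10 against 20 counts, 0.14 to 0.73), and in the mesenchyme, computed the same way, 0.38 (94 against 234 counts, 0.29 to 0.48). Fitted across all genes with no filter, the log2 change was -3.44 in the longitudinal muscle (adjusted p = 0.52) and -1.11 in the circumferential muscle (adjusted p = 0.67). Neither passed. The Hoxd13 effect on ALDH1A3 in mesenchyme minus that in muscle was 1.24 ± 0.77 (adjusted p = 1, 95% interval -0.26 to 2.74), so a difference between layers was not shown.

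Hindgut replicate 1 held 9 of 11 hindgut counts of ALDH1A3 in the longitudinal muscle and 14 of 19 in the circumferential muscle. It was also the deepest, with 49535 of 97244 total hindgut counts in the first layer and 112252 of 222433 in the second. In CPM on TMM library sizes of all 36 columns it was highest in the longitudinal muscle (185, against 0 to 96.6). In the circumferential muscle replicate 3 was higher (147 CPM from 2 counts, against 131). The hindgut level of ALDH1A3 was 0.53 (0.22 to 1.26) and 0.60 (0.30 to 1.18) of the midgut level in these layers with all samples. Without hindgut replicate 1 it was 0.20 (0.022 to 0.86) and 0.32 (0.093 to 0.87). In the longitudinal muscle ALDH1A1 had 5 counts in midgut, 6 with Hoxd13 and 4 in hindgut, all 4 of hindgut in replicate 1, and 16, 16 and 26 in the circumferential muscle. ALDH1A2 had 3, 1 and 3 counts in the longitudinal and 2, 5 and 4 in the circumferential muscle. For these 2 genes each interval of a group ratio in muscle included 1. All these intervals cover counting error only, not the spread between samples, so none of them is a test.

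Levels between layers are CPM on TMM library sizes of all 36 columns, a scale unlike that of the mesenchyme values above. ALDH1A1 was found in all 12 circumferential muscle regions, at 137 ± 41.3 CPM (SD, n = 12), against 89.4 ± 37.2 CPM in the mesenchyme. It lay below its own mesenchyme in 3 of 12 samples. Without the low-count filter its log2 difference was 0.09 ± 0.26 (adjusted p = 1). ALDH1A2 was at 0 in 6 of 12 circumferential and 8 of 12 longitudinal muscle regions, and ALDH1A3 at 0 in 4 of 12 longitudinal ones. In that unfiltered fit of 17138 genes, ALDH1A1 (-1.12, adjusted p = 0.030) and ALDH1A3 (-1.45, adjusted p = 0.0083) were called lower in the longitudinal muscle and ALDH1A2 (-1.34, adjusted p = 0.026) in the circumferential muscle. Of all genes, 15.3% were called in the longitudinal comparison, nearly all as lower (0.0583% as higher), and 9.34% were called lower in the circumferential one. Most calls over the whole table were thus in the direction of the members' calls, and nothing is read from these. ALDH1A3 had 127 ± 165 CPM in the longitudinal muscle and 125 ± 77.1 CPM in the mesenchyme, with 7 of 12 samples below their own mesenchyme. These mean levels do not follow the log2 differences of the fit, -1.45 for ALDH1A3 here and 0.09 for ALDH1A1 in the circumferential muscle. The reason was not tested.

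**Figure D5:**
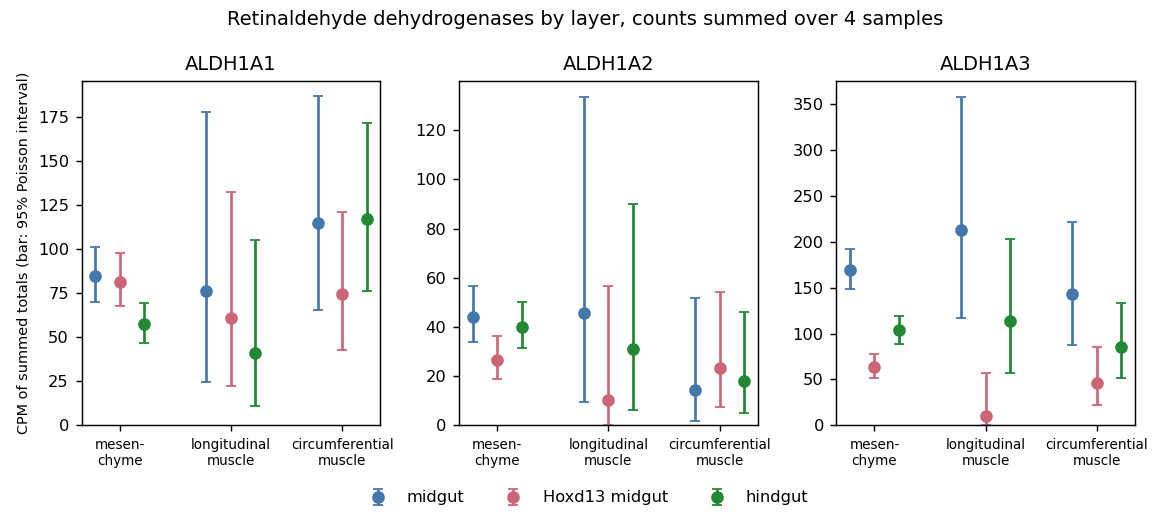
Level of each gene by layer and group, in CPM of the counts summed over 4 samples, with exact Poisson 95% intervals that cover counting error only. ALDH1A3 is lower in the Hoxd13 midgut than in midgut in each layer (63.9 against 169 in the mesenchyme, 10.1 against 213 and 46.5 against 143 in the muscle layers), with overlapping ranges of samples in the circumferential muscle.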

How the data were processed

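Counts of 3 layers in 12 samples were used, 36 columns in all. The deposited values are whole-number counts, not normalised as far as their differing totals show. Per the submitters' processing notes the tools were STAR, featureCounts, UMI-tools, DESeq2 and MultiQC, without roles, on GRCg6a; whether reads or unique molecules were counted is not stated there or elsewhere in the labels, so intervals and floors cover counting error only. Depth per sample opens the report; 3 counts, the 95% upper limit for a gene at 0, were 3.32 to 14.2 CPM in a mesenchyme sample.

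Tests used edgeR 4.0.16 in R 4.3.3 (quasi-likelihood, two-sided, TMM factors, filterByExpr with minimum counts of 10 per sample and 15 in total) on the 12 mesenchyme samples, which shared 1 estimate of the spread. P-values were adjusted by Benjamini-Hochberg over all genes tested, with a threshold of 0.05. SEs follow from the log2 change and the F statistic. All 36 columns entered the comparison of layers, blocked by sample. Of the genes tested, 614 passed the filter there, 144 in the longitudinal and 349 in the circumferential muscle fit, and no member was among them. The code was tested on simulated data. Ratios of summed counts have exact binomial intervals. List symbols were matched by symbol and, for 1 gene, by a synonym in the RefSeq table of GRCg7b, used only for names and chromosomes.

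Named genes are the members, the tested genes of the retinoic acid list and of the other aldehyde dehydrogenases, and the 5 genes most like each member, of which those with only an Ensembl identifier are not described, and 2 others are not reported here; untested list genes and markers that are named were chosen after their values were seen. The members and lists were chosen with earlier results of these data known. Alternatives were DESeq2 1.42.0, its size factors (RLE) in edgeR, no filter, only the groups compared, no mitochondrial genes, the replicate number as a block, and each sample left out in turn.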

Additional observations from a re-analysis of the deposited data

Results flagged for a closer look

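In 96 groups of 4 samples examined for a sample far from the others, 13 had one, 7 of them in hindgut. The cut-off is passed by about 1 in 20 groups of independent normal values. These groups share samples, and a group with counts in 1 sample alone always passes, so that rate does not apply here. In the mesenchyme, hindgut replicate 1 was far above the other hindgut samples for the epithelial marker sum (3362 CPM of the totals), ADH1C (143.7 CPM) and ADH4 (124.5 CPM). MEIS2 was high in hindgut replicate 3 (162.3 CPM) and RARB in hindgut replicate 2 (49.91 CPM, 9 counts). CDX1 was low in midgut replicate 1 (93.79 CPM), ALDH1A1 high in Hoxd13 midgut replicate 3 (116.1 CPM), and the ALDH1A2 share of the members' counts high in Hoxd13 midgut replicate 4 (17.5%). Levels in the longitudinal muscle are on TMM library sizes of all 36 columns. In that layer, ALDH1A1 was high in Hoxd13 midgut replicate 1 (189.9 CPM, 3 counts) and in hindgut replicate 1 (82.38 CPM, 4 counts). ALDH1A2 and ALDH1A3 were each above 0 in only 1 Hoxd13 midgut sample there (54.51 CPM, 1 count, replicate 3 for both), and ALDH1A2 in hindgut replicate 1 only (61.79 CPM, 3 counts).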

How the results depend on the processing

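Values of each result under other settings follow, with the value given first for the setting of the report. The hindgut against midgut comparison called 62 genes, against 120 with DESeq2, 231 with no low-count filter, 2 with only the 2 groups compared, 143 with the replicate number as a block, and 14 to 825 when each sample was left out in turn. Hoxd13 midgut against midgut called 111 genes, against 71 with DESeq2, 172 with no filter, 365 with only 2 groups and 37 to 317 with a sample left out. Hindgut against Hoxd13 midgut called 158 genes, against 71 with only 2 groups and 58 to 629 with a sample left out. Of the retinoic acid list, 0 genes were called in hindgut against midgut, against 1 with DESeq2, with no filter and with the replicate block, and 0 to 7 with a sample left out. In the Hoxd13 midgut 0 were called, against 1 with no filter, 1 with only 2 groups and 0 to 1 with a sample left out; in hindgut against Hoxd13 midgut 2, against 0 with only 2 groups and 0 to 6.

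ALDH1A3 in hindgut against midgut passed with no filter (-1.09, adjusted p = 3.0e-05) and with the replicate block (-1.30, adjusted p = 0.0227), and ranged from -2.14 to -0.91 with a sample left out. ALDH1A3 in the Hoxd13 midgut ranged from -1.32 to -1.10 there. It passed by edgeR with only 2 groups (-1.23, adjusted p = 1.2e-06) and with no filter (-1.23, adjusted p = 7.4e-06). ALDH1A3 in hindgut against Hoxd13 midgut changed sign without hindgut replicate 1 (-0.92), without Hoxd13 midgut replicate 1 (-0.017), with the replicate block (-0.12) and by DESeq2 (-0.09), and reached 0.30 otherwise; of these, the first alone passed. ALDH1A1 in hindgut against Hoxd13 midgut did not pass with only 2 groups (-0.98, adjusted p = 0.097) and ranged from -1.66 to -0.80; against midgut it ranged from -1.52 to -0.65. With no filter 2 members passed in longitudinal muscle against mesenchyme and 1 in circumferential muscle, where 0 could be tested with it. The causes were not tested. RLE size factors, DESeq2 and leaving out mitochondrial genes changed no call of a member, but DESeq2 gave no adjusted p for ALDH1A1 or ALDH1A3 in hindgut against midgut nor for ALDH1A2 in any comparison.

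No pairing of the samples by replicate number was seen. Over 12 pairs with the same number, the deviations from group means correlated at -0.27 to 0.09, 0 of them over 0.1. Other pairs correlated at -0.17 to 0.23. Counting error lowers such correlations, so pairing is not excluded. With the replicate number as a block, the genes called in hindgut against midgut went from 62 to 143. The block changed no member's call but the one given. Depth limits ALDH1A2 and every muscle value. It also limits hindgut mesenchyme replicates 2 and 3, with 4 and 5 counts of ALDH1A1 and 3 and 7 of ALDH1A3.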
